A study of Drosophila melanogaster with 4 samples.

Results

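The regions described here are the accessible sites called by ATAC-seq on the euchromatic X chromosome of Drosophila S2 cells. In ATAC-seq the Tn5 transposase inserts adapters into open DNA, so that a peak marks a place where chromatin let the enzyme in. A peak was taken as euchromatic X when its midpoint lay on X below position 20422827 of the dm3 build. This gave 461 of the 5145 peaks of the longer deposited list, called list A. It gave 274 of the 4027 peaks of the shorter, called list B. A further 64 list A and 59 list B peaks lay on X beyond the limit. The last list A peak inside it ran from 20182032 to 20182310 with a summit −log10 p of 3.89, and the first beyond it from 20527374 to 20527614 with 4.19. For list B the last inside ran from 20126286 to 20126580 with 3.92 and the first beyond from 20528040 to 20528251 with 5.85.

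S2 is an embryonic fly cell line with hemocyte-like properties. All 4 libraries came from it, 2 of them labelled as controls with the treatment LacZ, a bacterial gene absent from flies, and 2 labelled as depleted of H1 by knockdown. H1 is the linker histone, which binds the nucleosome where DNA enters and leaves it and helps to fold chromatin. The labels name both lists for every library and do not say which list came from which cells. The lists were therefore kept apart and not assigned to a group, and nothing that differs between them can be read as an effect of H1. There is 1 list of each kind, so no value has a replicate, and depth is unknown because the lists hold no read counts. Intervals in brackets are 95% intervals of counting error that treat peaks as independent, except where the spread between bins of chromosome is allowed for.

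The X chromosome of flies is regulated as a unit. In male cells, and in S2 cells, which are of male type, the MSL complex binds it with the noncoding roX RNAs, spreads over active genes and acetylates histone H4, which raises transcription from the X. Copy number of the X, MSL binding and gene positions were not measured in these files, and their part in the values was not tested. As an autosomal reference the peaks of 2L below 21011544, 3L below 22543557 and 3R above 2000000 were used. They numbered 2035 in list A and 1227 in list B.

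Peaks were sparser on X than on each of the 3 reference arms, in both lists. List A held 22.6 peaks per Mb of X (20.6 to 24.7). It held 29.2 on 2L, 27.5 on 3L and 31.0 on 3R. List B held 13.4 peaks per Mb of X (11.9 to 15.1), against 17.99 on 2L, 15.4 on 3L and 19.4 on 3R. The density on X was 0.770 times that of the reference for list A (0.695 to 0.853) and 0.759 times for list B (0.664 to 0.866). Against 3L alone the list B ratio was 0.872 (0.741 to 1.02), which includes 1. Over 88 bins of 1 Mb, peak numbers varied 12.0 times as much as independent peaks would for list A and 11.2 times for list B. With that spread allowed for, the intervals of the ratios to the reference were 0.543 to 1.09 and 0.490 to 1.18, and both include 1. The lower density of X was therefore larger than counting error, and lay outside the range of the 3 arms, but not beyond the spread between bins.

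**Figure D1:**
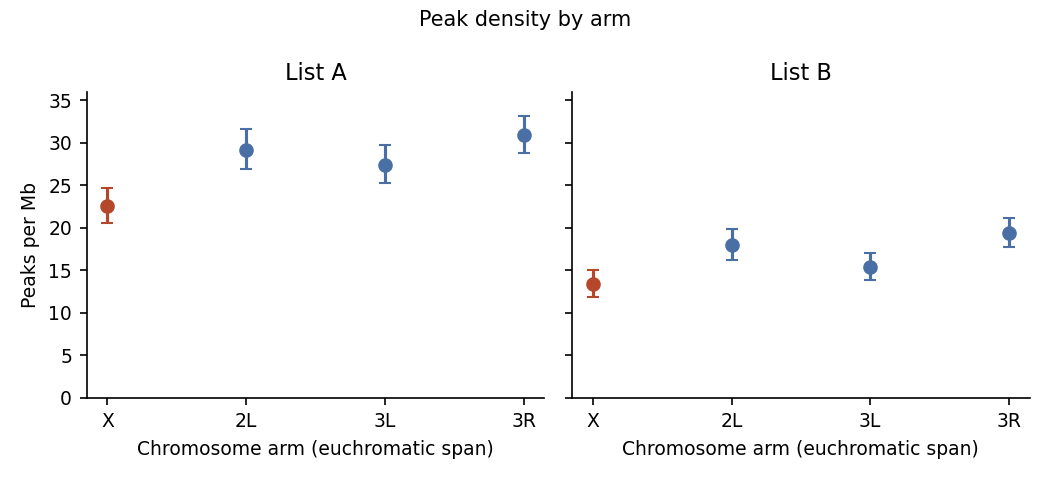
Peaks per Mb on the euchromatic span of X (red) and of 2L, 3L and 3R (blue) for list A (left) and list B (right). Bars are exact Poisson 95% intervals, and X, at 22.6 and 13.4 peaks per Mb, is the lowest of the 4 arms in each list.

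The density on X was also set beside the reference by peak strength, and the ratio showed no even trend with it. Strength is the caller's summed significance over a peak, its area, ranked within a list. Each list was cut into 5 classes of equal size by area, from weakest to strongest. For list A the density on X was 0.751 times that of the reference in class 1 (0.595 to 0.940), 0.774 in class 2, 0.753 in class 3, 0.721 in class 4 (0.570 to 0.903) and 0.882 in class 5 (0.685 to 1.12). List B gave 0.548 times in class 1 (0.387 to 0.758), 0.767 in class 2, 0.869 in class 3, 0.662 in class 4 (0.481 to 0.897) and 1.03 in class 5 (0.753 to 1.39). The ratio was thus highest in class 5 of both lists, with intervals that include 1, while class 4 was the lowest of list A and the second lowest of list B. Over the stronger 50% of each list the ratios were 0.789 and 0.796, close to those of all peaks. Every list A class interval held the ratio of all list A peaks, 0.770. Those of list B held 0.759, the ratio of all its peaks, except in class 1. The difference between classes was not tested. The strongest 10% of list A included 45 X peaks (9.76% of them, 7.21 to 12.8), and that of list B included 30 (10.9%, 7.51 to 15.3). Among reference peaks these shares were 6.34% (5.32 to 7.49) and 6.60% (5.28 to 8.14). X had the higher share in both lists. The intervals for X and the reference overlapped, which does not show that the shares are equal, and their difference was not tested.

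Along X the peaks lay unevenly, and both lists were mostly full and empty in the same places. The 20 full bins of 1 Mb held 5 to 47 list A peaks, with a median of 19, and 1 to 30 list B peaks, with a median of 14. The median list A bin held 25 peaks on each of 2L, 3L and 3R. Across the 20 bins the numbers of both lists had a Spearman rho of 0.885, given as a description, since it is not stated whether the lists share libraries. The fullest X bins of list A ran from 3 to 4 Mb (47 peaks), 19 to 20 Mb (41) and 13 to 14 Mb (39). For list B the fullest were from 3 to 4 Mb and 13 to 14 Mb, with 30 peaks each, and from 2 to 3 Mb, with 28. The emptiest of list A were from 8 to 9 Mb (5 peaks), 12 to 13 Mb (6) and 0 to 1 Mb (8). List B held 1 peak from 8 to 9 Mb, 3 from 12 to 13 Mb and 3 from 16 to 17 Mb. The bin from 19 to 20 Mb was full in list A but held 14 peaks of list B.

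The variance of the bin numbers over their mean was 7.47 on X in list A, where independent peaks would give 1. It was 6.399 on 2L, 12.6 on 3L and 19.6 on 3R. The fullest X bin held 47 list A peaks, against 59 on 2L, 90 on 3L and 129 on 3R. With the fullest bin of each arm left out, the density of X was 0.806 times that of the reference for list A (0.723 to 0.898).

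**Figure D2:**
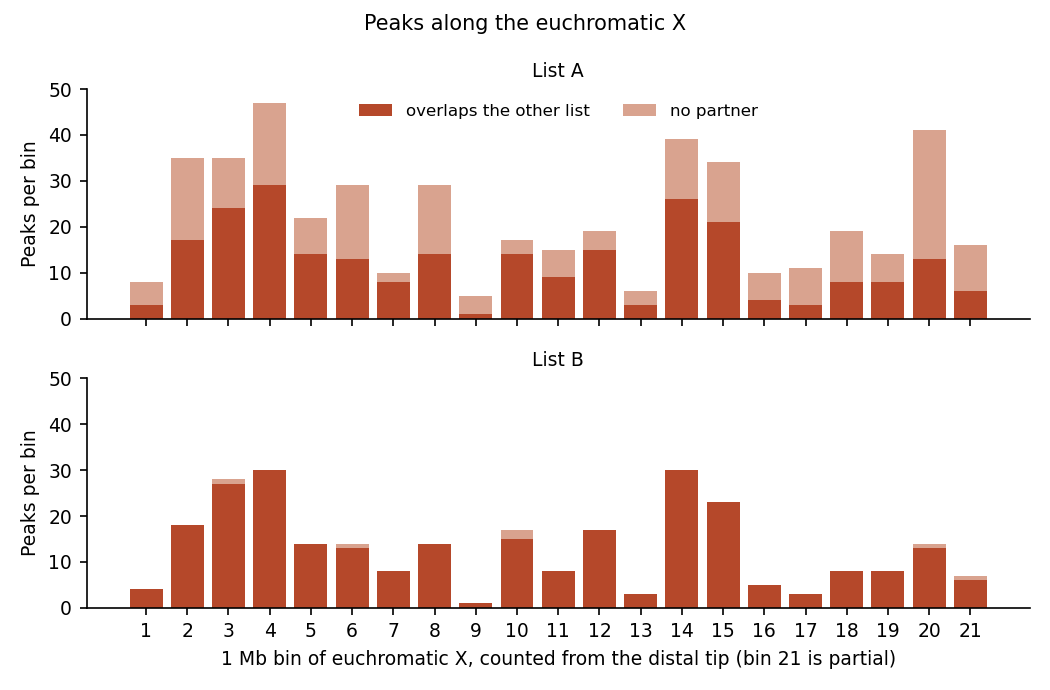
Number of list A (top) and list B (bottom) peaks in each 1 Mb bin of euchromatic X, counted from the distal tip, with peaks that overlap the other list and peaks without a partner in separate shades. Bins 4 and 14 are the fullest of list B and among the fullest of list A, while bin 20 holds 41 list A peaks, of which 28 have no partner, and 14 list B peaks.

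The longest stretches of X with no peak in either list spanned 466 kb from 8936689 to 9402315, 461 kb from 12097702 to 12559145, and 457 kb from 711779 to 1169094. In list A alone the longest gap was 466 kb on X, against 579 kb on 2L, 776 kb on 3L and 645 kb on 3R. Of neighbouring list A peaks on X, 48.5% were less than 2 kb apart, against 47.8% on 2L, 45.0% on 3L and 48.2% on 3R. Peaks whose neighbours lay within 1 kb were joined into runs, a measure chosen after the data were seen. List A had 268 runs on X, single peaks included, or 13.1 per Mb, against 18.3 on 2L, 16.9 on 3L and 19.1 on 3R. Runs of 5 or more peaks held 105 of the 461 X peaks (22.8%). The share was 11.2% on 2L, 20.4% on 3L and 17.0% on 3R. For list B it was 32.8% on X, and from 16.9% to 28.2% on the other arms. X thus had the fewest runs per Mb and the highest share of peaks in long runs of the 4 arms, and no test of this difference was made.

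The run with the most peaks on X lay from 13940794 to 13955380. It held 13 list A peaks in 14.6 kb, all of them shared with list B, which had 15 peaks there. The list A peaks covered 76.1% of it, and their median stood at percentile 92.4 of the list by area. Within it, peaks of nearly equal width recurred. List A peaks starting at 13943241, 13947048, 13950856 and 13953395 were 1080, 1082, 1080 and 1076 bp wide. Their starts lay 3807, 3808 and 2539 bp apart, and in the last 3 the summit lay 488 bp from the start. Their summit −log10 p ran from 7.41 to 8.35. Another peak of like width, 1071 bp from 13941981, was lower, at 6.60, and began 1260 bp before the first of these. In list B the peak at 13947048 was split into peaks of 602 and 363 bp, and 3 peaks of like width remained, of 1067, 1067 and 1064 bp.

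The next run, from 3754899 to 3769209, held 10 list A peaks, 9 of them shared. It belonged to a stretch from 3.6 to 3.8 Mb with 28 list A and 22 list B peaks. That stretch held 4 of the 13 list A peaks of 2 kb or more on X. The widest of them, from 3745625 to 3751178, spanned 5554 bp and its list B partner 5593 bp. It was low for its width, with a summit −log10 p of 6.05, and of 5.75 for its partner.

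X peaks were about as wide and as high as those of the autosomes. The median list A width was 265 bp on X (238 to 289) and 260 bp in the reference (252 to 270). The median list B width was 297.5 bp (268 to 336) and 285 bp (273 to 301). Peaks of 1 kb or more made up 34 of the list A peaks on X (7.38%, 5.16 to 10.2) and 5.85% of the reference (4.87 to 6.96). Narrow peaks, under 150 bp, made up 87 (18.9%, 15.4 to 22.7) and 17.2% (15.6 to 18.9). The summit height, the caller's −log10 p at the highest point, had a median of 4.87 on X in list A (4.70 to 4.98) and of 4.80 in the reference (4.72 to 4.86). List B medians were 4.82 (4.67 to 4.996) and 4.74 (4.68 to 4.82). All these pairs of intervals overlapped, which does not show that the values are equal, and the differences between X and the reference were not tested. Heights are compared within a list only, since they depend on the depth and background behind it. Wider peaks had higher summits, with a Spearman rho of 0.728 over the 461 list A peaks and 0.655 over the 274 list B peaks, as a description.

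Of the list A peaks on X, 208 (45.1%, 40.5 to 49.8) had no list B peak overlapping them by 1 bp or more. Over the whole of list A this share was 33.1%, and over the reference arms 42.8%. X lay between 2L (41.5%) and 3R (40.6%) on the lower side and 3L (46.8%) on the upper. The odds of having no partner were 1.099 times as high on X as in the reference (0.897 to 1.35). Within 10 classes of equal size by area they were 1.33 times as high (0.987 to 1.80), and both intervals include 1. Against single arms the odds within these classes were 1.37 times as high for 2L (0.960 to 1.94) and 1.12 for 3L (0.780 to 1.62). Against 3R they were 1.497 times as high (1.07 to 2.09). Only the 3R interval lay above 1, and it does not allow for the spread between bins. With that spread allowed for, the interval of the ratio of 1.099 to the whole reference was 0.821 to 1.47. In the other direction nearly all peaks were shared. Of the list B peaks on X, 6 had no list A partner (2.19%, 0.808 to 4.71), against 12.2% over the whole of list B and 1.22% in the reference. List B held 0.594 times as many peaks as list A on X and 0.603 times as many in the reference, a ratio of ratios of 0.986 (0.835 to 1.16).

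On X, as in the reference, whether a peak had a partner followed its strength. In class 1 of 10, the weakest, 43 of 44 X peaks had none (97.7%, 88.0 to 99.9). The share was 24 of 45 (53.3%, 37.9 to 68.3) in class 5 and 3 of 54 (5.56%, 1.16 to 15.4) in class 8. It was 0 of 39 in class 9 and 0 of 45 in class 10, with exact intervals that reach 9.03% and 7.87%. A limit of 3 counts of the total is lower, at 7.69% and 6.67%. By width, 83 of 87 X peaks under 150 bp had no partner (95.4%, 88.6 to 98.7). Of those of 300 to 599 bp, 22 of 128 had none (17.2%, 11.1 to 24.9), and of those of 1 kb or more 0 of 34. The reference gave 89.4% (85.7 to 92.4), 13.3% (10.6 to 16.4) and 0 of 119. X peaks in runs of 5 or more had no partner in 13 of 105 cases (12.4%, 6.76 to 20.2), against 110 of 185 peaks that stood alone (59.5%, 52.0 to 66.6). The reference was close to this, with 14.8% (11.2 to 19.1) in such runs and 54.4% (51.0 to 57.8) alone. On X, peaks in such long runs were also wider, with a median of 399 bp against 229 bp.

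**Figure D3:**
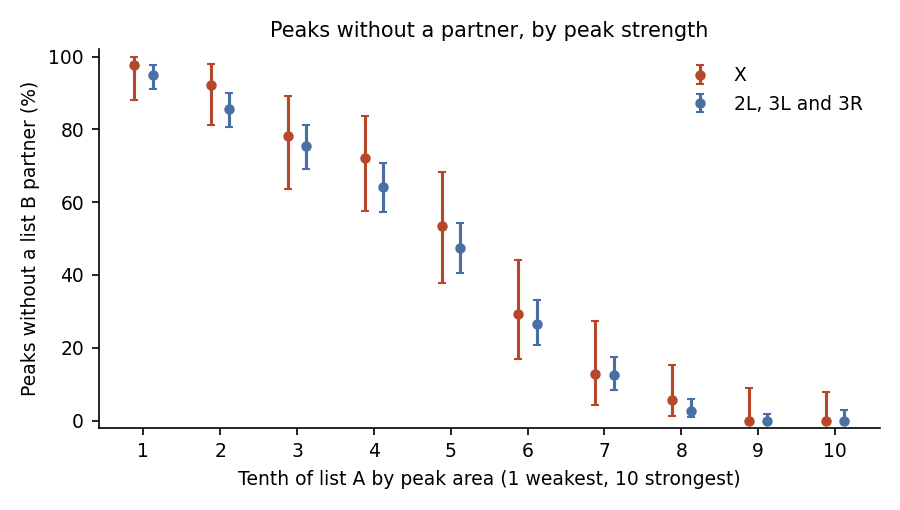
Share of list A peaks without a list B partner in 10 classes of equal size by peak area, on X (red) and on 2L, 3L and 3R together (blue), with exact 95% intervals. Both fall from over 90% in the weakest class to 0 of 39 and 0 of 45 X peaks in classes 9 and 10, and the intervals of X and the reference overlap in every class.

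The share without a partner was not even along X, and was highest toward the centromere. The span was cut into 4 stretches of equal length, after the values by bin were seen. In stretch 4, from 15.3 to 20.4 Mb, 66 of 106 list A peaks had no partner (62.3%, 52.3 to 71.5). In stretches 1 to 3 together 142 of 355 had none (40.0%, 34.9 to 45.3). From the tip, stretch 1 had 40.8%, stretch 2 had 44.4% and stretch 3 had 35.6%. The 6 bins from 15 Mb on lay between 42.9% and 72.7%, and the 15 bins before it between 17.6% and 80%, so the ranges overlapped.

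Stretch 4 of the autosomes is set beside that of X as a description. Because the cut followed from the values by bin on X, the intervals for stretch 4 do not cover that choice and are no independent support. In the autosomes the share was 36.6% on 2L, 47.1% on 3L and 38.1% on 3R, all below X. The odds of having no partner were 2.48 times as high in stretch 4 of X as in the rest of its span (1.58 to 3.87), and 0.875 times in the reference (0.713 to 1.07). The ratio of these odds ratios was 2.83 (1.73 to 4.62, and 1.57 to 5.08 with the spread between 1 Mb bins allowed for). In stretch 4 alone, the odds were 2.44 times as high on X as in the reference (1.58 to 3.75). With the spread between bins allowed for, that interval was 1.30 to 4.58. Within the 10 area classes the odds were 2.63 times as high (1.35 to 5.13), an interval that does not allow for the spread. List B had 43 peaks in stretch 4 of X, 0.558 times the density of the rest (0.394 to 0.776), while list A had 106, or 0.896 times (0.714 to 1.12).

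List A peaks in stretch 4 of X were also lower and narrower. Their median width was 209 bp (183 to 231), against 299 bp (274 to 339) in the rest of the span. Their median summit −log10 p was 4.57 (4.41 to 4.82), against 4.93 (4.83 to 5.10). None of the 106 reached 1 kb, whereas 34 of the other 355 did. In stretch 4 of the reference the medians were 250 bp (233 to 268) and 4.89 (4.69 to 4.99), and 30 of 503 peaks reached 1 kb. Reference medians in stretches 1, 2 and 3 were 275, 249.5 and 258 bp, and 4.78, 4.73 and 4.84. Within the 10 area classes the odds ratio of stretch 4 against the rest of X was 1.71 (0.881 to 3.34), and this interval includes 1. In the reference the same odds ratio within classes was 0.743 (0.554 to 0.997), below 1. The ratio of X to the reference within classes, 2.31 (1.11 to 4.78), thus rests in part on the lower odds in stretch 4 of the autosomes. The contrast with the reference was smaller for wider stretches. Without area classes, the last of 3 stretches of equal length gave a ratio of 1.59 (1.04 to 2.43), the last of 2 gave 1.35 (0.898 to 2.03), and the last of 5 gave 2.80 (1.67 to 4.68). Within the 10 area classes these ratios were 1.37 (0.722 to 2.59), 1.12 (0.611 to 2.04) and 2.59 (1.22 to 5.51), so with 3 stretches the interval then included 1. The intervals in this paragraph do not allow for the spread between bins. The bin from 19 to 20 Mb had 28 of 41 peaks lacking a partner, and without it 38 of 65 peaks of stretch 4 lacked one (58.5%, 45.6 to 70.6).

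**Figure D4:**
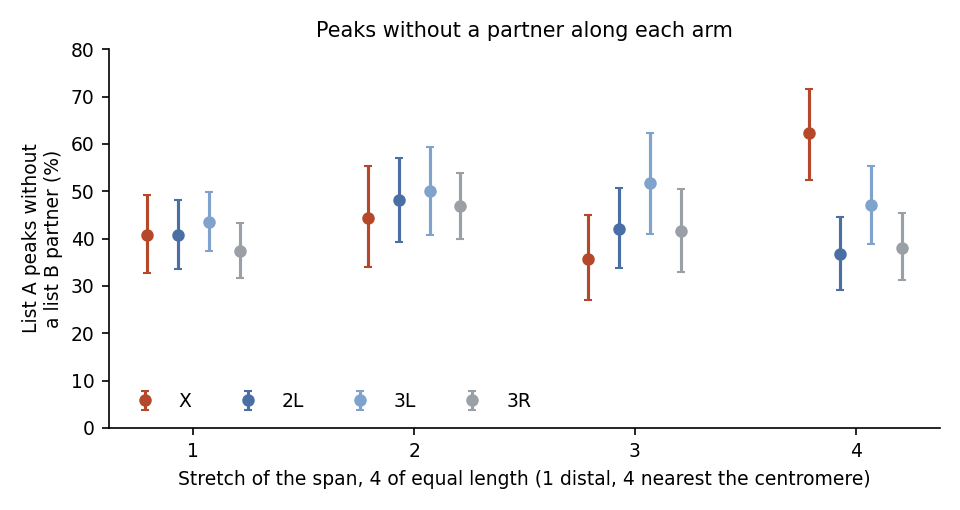
Share of list A peaks without a list B partner in 4 stretches of equal length of X (red), 2L, 3L and 3R, from the distal end (1) to the end nearest the centromere (4), with exact 95% intervals. X lies among the other arms in stretch 1 and below them in stretches 2 and 3, and in stretch 4 it stands at 62.3%, above 2L, 3L and 3R.

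List A peaks of X without a partner lay at all distances from list B peaks. The median distance to the nearest was 7.68 kb (3.89 to 18.6), and 77 of the 208 lay within 2 kb (37.0%, 30.4 to 44.0). In the reference the median was 8.83 kb (7.05 to 11.7) and the share 32.6% (29.5 to 35.8). The strongest by area ran from 12629874 to 12630307, with a summit −log10 p of 5.88, and lay 352 bp from a list B peak. The next ran from 1170552 to 1170914, with 6.39, and its nearest list B peak was 243 kb away. The third and the fourth began at 1511023 and 7193843, with list B peaks 4.56 kb and 632 bp away. The other 6 of the 10 strongest began at 5631285, 1472254, 17662206, 2197866, 387511 and 19562489. The 10 were 222 to 479 bp wide and stood between percentiles 59.4 and 75.8 of list A by area.

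The 6 list B peaks that met no list A peak were all weak, between percentiles 0.0993 and 17.0 of list B, and 61 to 325 bp wide. They began at 20126286, 5896895, 9990770, 2320949, 19928935 and 9990091. The nearest list A peaks lay 604, 1212, 114, 90277, 1266 and 582 bp away, in that order. The peak at 2320949 was both the narrowest and the farthest from a list A peak.

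Where an X peak overlapped exactly 1 peak of the other list, each way, the pair marked nearly the same point and was mostly narrower in list B. The 236 X pairs had summits a median of 3 bp apart (2 to 5), against 7 bp (5 to 8) in the reference. Of them 196 were wider in list A (83.1%, 77.6 to 87.6), against 966 of 1094 pairs in the reference (88.3%, 86.2 to 90.1). The list B width over the list A width had, on X, a median log2 of -0.16 (-0.20 to -0.10), a width 10.2% smaller. In the reference it was -0.21 (-0.23 to -0.19), and on the single arms from -0.23 on 3L to -0.19 on 3R. The intervals of X and the reference overlapped, and their difference was not tested.

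Along X this log2 width ratio was -0.14 in stretch 1 (-0.22 to -0.10, 82 pairs), -0.16 in stretch 2 (-0.38 to -0.09, 49 pairs) and -0.06 in stretch 3 (-0.16 to -0.02, 66 pairs). In stretch 4, where peaks most often had no partner, it was -0.37 (-0.50 to -0.20, 39 pairs), and 37 of the 39 were wider in list A. These values are not set beside those of reference stretches, nor taken within classes of width or area. The interval of stretch 4 overlapped those of stretches 1 and 2, but not that of stretch 3. Some list A peaks met several of list B: 15 X peaks (3.25%, 1.83 to 5.31) met 2 or more, a share of 2.56% in the reference (1.91 to 3.34). In the other direction 1 list B peak on X met more than 1 list A peak.

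A few kilobase-long regions stood far above the rest of X. By summed rank of area the first 5 pairs were those at 1522171, 4992465, 322517, 10243347 and 3309213, named by their list A starts. These 5 carried 38.05% of the summed area of all X peaks of list A and 47.2% for list B, on 13.8% and 18.9% of the bases under peaks. The same 5 had the highest X summits of both lists. Their −log10 p ran from 14.7 to 16.0 for list A and from 13.01 to 14.5 for list B. They had nearly the same width in both lists. The pair at 1522171 spanned 6811 and 6763 bp, that at 4992465 4946 and 4934 bp, that at 322517 6072 and 6037 bp, that at 10243347 4945 and 4940 bp, and that at 3309213 6049 and 5964 bp. Of the next pairs by rank, those at 4990370 and 10248926 adjoined 2 of the first 5, and that at 3745625 was the wide, low region described above. The pairs at 7928146 and 15307634 were narrower, at 1135 and 1011 bp, with list B partners of 981 and 849 bp. All 10 lay above percentile 95 of both lists.

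The largest regions came in matching outlines. The broad list A peak from 4992465 to 4997410 and the one from 10243347 to 10248291 were 4946 and 4945 bp wide. The first had a smaller peak of 1456 bp before it, across 639 bp without a peak, and the second had one of 1430 bp after it, across 634 bp. Beyond the other end of each broad peak lay a further list A peak, from 4997514 to 4997898 and from 10242838 to 10243244. These further peaks are left out of the pairs described and drawn here. In order along the chromosome the pairs were mirror images. The summit of the broad peak lay 464 bp from the outer end in the first and 455 bp in the second. The same outline occurred on 2L from 3252009 to 3259029, with peaks of 4946 and 1442 bp, a separation of 633 bp and a broad summit 455 bp from the outer end. It had the orientation of the pair at 10243347. The small summit lay 558 bp from the inner end both on 2L and in that pair, but 666 bp in the pair at 4990370. List B gave these outlines too, with broad peaks of 4934, 4940 and 4934 bp and separations of 642, 639 and 639 bp.

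**Figure D5:**
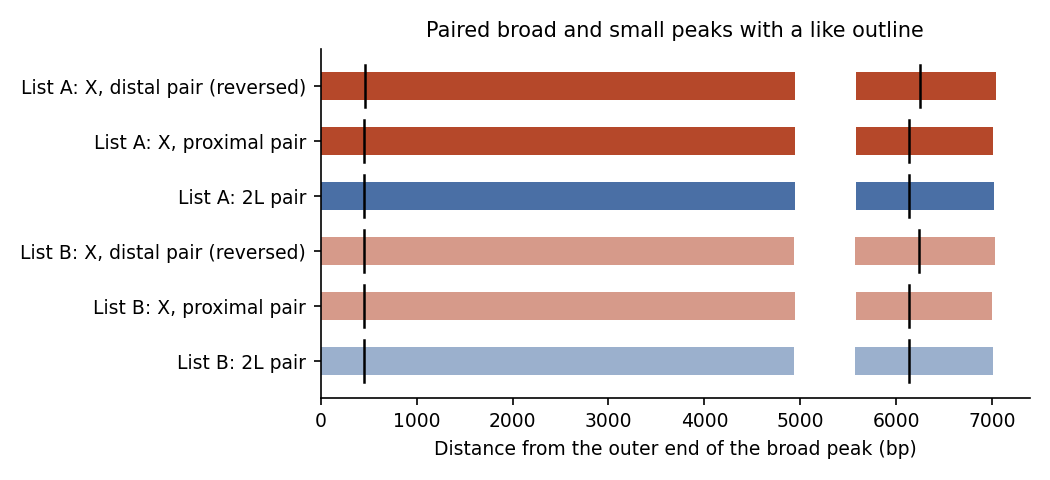
The 3 pairs of a broad and a small peak, 2 on X (red) and 1 on 2L (blue), for list A and list B, drawn to scale from the outer end of the broad peak, with the distal X pair reversed. Lines mark summits, and the broad peaks of 4934 to 4946 bp, the separations of 633 to 642 bp and the broad summits 447 to 464 bp from the end nearly coincide.

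The regions at 322517 and 3309213 also mirrored each other. Their list A widths were 6072 and 6049 bp, with summits 1029 bp after the start of the one and 1069 bp before the end of the other. The strongest X region by area, at 1522171, matched neighbouring list A peaks on 2L in the same orientation. These started at 20176890, 20183811 and 20190728 and were 6813, 6808 and 6807 bp wide, against 6811 bp on X. All had the same summit −log10 p as the X peak, 15.1. In list B these 2L peaks were 6761, 6769 and 6771 bp wide, against 6763 bp on X, all with 14.1. Over all X peaks of 1 kb or more, 11 of 34 in list A and 12 of 27 in list B had at least 1 like peak on X or on 2L, 3L or 3R. Like meant a width within 2%, an area within 10% and a summit within 2% of the width from the same or the mirrored place. This measure was chosen after the match was seen and was not set against chance. The same share was not computed for peaks of 1 kb or more on 2L, 3L and 3R. Whether like peaks are more common on X than on those arms was therefore not tested. A smaller example of a match is the list A peak at 11529359, 1091 bp wide, with like peaks of 1090 bp on 2L and of 1098 and 1091 bp on 3L. No dm3 genome sequence was used here, so whether such regions share sequence, and whether reads with several placements lie behind their outlines, was not tested.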

How the data were processed

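ATAC-seq peaks of 4 S2 cell libraries were analysed as the authors deposited them, in 2 lists of 10 columns without header. Per the submitters' processing notes the build was dm3 and the tools Bowtie2, an aligner, and Genrich 0.5, a peak caller. Their options, filters, the handling of reads with several placements and any pooling of libraries before calling were not given in the sources used here. Peak area, as deposited, is a score that is read from its place in the layout as the caller's significance summed over a peak. Summit heights were deposited as the −log10 of the p-value, with the −log10 of the q-value beside it. Starts were made 1-based.

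All else was computed with Python 3.11.15, numpy 2.4.6, pandas 2.3.3, scipy 1.17.1 and matplotlib 3.10.9. Densities carry exact Poisson intervals, density ratios exact conditional binomial intervals, shares exact Clopper-Pearson intervals and medians order-statistic intervals, all at 95%. Odds ratios within area classes were pooled by the Mantel-Haenszel method. Intervals said to allow for the spread between bins were widened by the dispersion over 1 Mb bins. The density ratio and the odds ratio within classes were tested on simulated data in which peaks were independent. Such data cannot show whether the intervals hold under the spread between bins found here. Partners overlapped by 1 bp or more. Positions on 3R were counted from the end of its last peak, so that stretch 1 is distal on every arm.

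Regions were named by rule: the 10 pairs with the best summed rank by area, the 5 highest summits and the 3 fullest and emptiest bins of each list, the 10 strongest list A and all list B peaks without a partner, the 3 longest peak-free stretches and the peaks nearest the limit. Runs, matching outlines and peaks within them were chosen after their values were seen. The members and measures were chosen with earlier results of these data known. Gene names and sequences were not used here, since the annotation at hand was of another build. Alternatives were another X span, merging of close peaks, stronger peaks only, as many list A as list B peaks, other overlap rules, other reference arms, another bin size and −log10 q. Leaving out the fullest bins and the interval for the spread between bins were added after seeing the data.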

Additional observations from a re-analysis of the deposited data

How the results depend on the processing

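Of 83 alternative values for 15 results, 58 were counted as unchanged. For ratios this meant the same direction and an interval that still included, or still excluded, no difference. For densities, widths, heights and shares it meant a value inside the main interval, and for the spread along X a value of like size. Among the 58, the list B density, width, height and density ratio could not change when only list A was trimmed. The density ratio of X to the reference stayed at 0.770 and 0.759 with the spread between 1 Mb bins allowed for, but its intervals (0.543 to 1.09 and 0.490 to 1.18) then included 1. List B numbers over list A numbers, on X against the reference, turned from below to above 1 with X up to 18 Mb (1.04), with the stronger 50% of peaks (1.01) and without 3R (1.01), and every interval included 1. The cause was not tested. Merging peaks within 500 bp gave densities of 15.9 and 9.40 peaks per Mb for lists A and B, a list A width of 310 bp and variance-to-mean ratios of 4.003 and 3.08. The stronger 50% gave 11.02 and 6.76 peaks per Mb, widths of 448 and 511.5 bp and heights of 6.09 and 5.86. Trimming list A to the length of list B gave 17.7 peaks per Mb, 327 bp, a height of 5.13 and 31.5% without a partner. These settings join close peaks or leave out the peaks of smallest area. As −log10 q the heights were 2.54 and 2.41. With a reciprocal overlap of 50% the shares without a partner were 50.8% and 17.2%, and with a gap of up to 500 bp allowed the list A share was 37.5%. No paired analysis was possible because the labels name both lists for all libraries, and for the same reason no replicate could be left out. Depth is unknown, so how far it limits the weak peaks was not tested.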
